A study of Mus musculus with 15 samples.

Results

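Reprogrammed cells and hepatocytes, both sorted from livers of mice fed DDC, were compared across the 13905 of 24493 genes that reached at least 1 TPM in at least 3 of 15 libraries. TPM is a relative transcript abundance corrected for transcript length. The comparison rests on 6 of the 15 libraries, 3 of each cell group. Expression was measured by sequencing total RNA of mouse liver cells taken straight from the animal. The reprogrammed cells, which the series title describes as reprogrammed hepatocytes, the biliary cells used below for comparison, and the hepatocytes all came from mice given the virus AAV-TBG-Cre at 4 weeks of age. The TBG promoter is active in hepatocytes, so that Cre is made in cells that are hepatocytes at injection. The origin of the reprogrammed cells was not tested here. From 5 weeks of age these mice ate chow with DDC for 4 weeks. The other 6 libraries, from untreated mice given the same virus, entered only the filter, the scaling and the fit's estimate of spread. The labels give neither strain nor sorting markers, and they do not say that replicates were separate animals, so p-values measure the spread between these libraries only.

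DDC (3,5-diethoxycarbonyl-1,4-dihydrocollidine) blocks a late step of heme synthesis. It leads to porphyrin plugs in bile ducts, injury of duct cells and hepatocytes, and a ductular reaction, in which small ducts multiply around the portal vein. Under such injury some hepatocytes are known to switch on genes of the duct epithelium while they keep part of the hepatocyte program, a change that has been linked to YAP, Notch and TGF-beta signalling.

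Values are scaled TPM, that is TPM divided by a factor that aligns the median gene of each library. Log2 differences are reprogrammed cells minus hepatocytes on log2(scaled TPM + 1), a scale that shrinks the change of weakly expressed genes. Genes are called higher or lower, or said to have risen or fallen, at an adjusted p under 0.05 in limma and a log2 difference of 1 or more in either direction. The reprogrammed libraries held 12553 to 13233 genes of at least 1 TPM, against 10751 to 11088 in the hepatocyte libraries. Their 10 most abundant genes took 14% to 19.3% of all TPM, against 27.2% to 29.6% in hepatocytes. In TPM as deposited the median gene stood 0.71 higher in reprogrammed cells on the log2 scale, against 0.06 after scaling, so directions are relative to the median gene. Taken over genes, which do not stand for replicates, the correlation of libraries was 0.934 to 0.963 within the reprogrammed group, 0.840 to 0.920 between the groups and 0.944 to 0.967 within the hepatocyte group. Sequencing depth cannot be read from TPM.

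All 4 genes chosen to mark the cells were called in the direction of the labels, and 3 of them separated the groups. They were chosen with earlier results of these data known, so their direction is no test of the labels. Krt7 (GRCm38, chromosome 15, plus strand, bases 101411043 to 101430313), a keratin of duct epithelium, stood at 141, 166 and 214 in reprogrammed cells, against 0.484, 0.508 and 0.295 in hepatocytes (log2 difference 6.92, SE 0.22, adjusted p = 3.65e-10). Mmp7 (chromosome 9, plus strand, bases 7692090 to 7699585) codes for matrilysin, a secreted matrix protease, and stood at 376, 427 and 434 in reprogrammed cells against 1.57, 2.99 and 1.93 in hepatocytes (log2 difference 7.05, SE 0.17, adjusted p = 4.69e-11). Cd24a (chromosome 10, plus strand, bases 43578284 to 43584265), a small surface protein of duct and progenitor cells, stood at 459, 334 and 415 in reprogrammed cells against 8.71, 5.20 and 8.84 in hepatocytes (log2 difference 5.57, SE 0.17, adjusted p = 2.63e-10). For these 3 genes every reprogrammed library lay far above every hepatocyte library; over all genes tested the groups did not overlap, in either direction, for 48.6%. Cps1 (chromosome 1, plus strand, bases 67123026 to 67231259), the first enzyme of the urea cycle, stood at 327, 1489 and 789 in reprogrammed cells, against 1445, 3065 and 2852 in hepatocytes (log2 difference -1.68, SE 0.48, adjusted p = 0.0119). For Cps1 the groups overlapped by 1 library each, reprogrammed library 2 lying above hepatocyte library 1, and the call was lost without reprogrammed library 1, with adjusted p = 0.0529. Albumin mRNA (Alb) likewise overlapped, at 15174, 56023 and 29965 in reprogrammed cells against 50615, 104595 and 108580.0 in hepatocytes, and did not pass the test (log2 difference -1.5, adjusted p = 0.056), though it was called without reprogrammed library 2 or hepatocyte library 1, with log2 differences from -1.96 to -1.86. Libraries named in this way were left out one at a time. Whether any of these genes or proteins was used for sorting is not stated in the labels.

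Most markers of other liver cells were low in both groups, but the macrophage genes Cd14, Lyz2 and Mpeg1 were not. Of the genes tested, 3 of 15 macrophage, 2 of 11 stellate cell and 1 of 11 endothelial genes were called higher in reprogrammed cells, beside 13.7% of all genes. Of 7 erythroid and platelet genes 2 were higher and 1 lower, and of 4 lymphocyte and neutrophil genes none was called. The 16 macrophage genes summed to 365 to 511 scaled TPM in reprogrammed libraries, against 185 to 310 in hepatocyte libraries, most of it from Cd14 (334 in reprogrammed cells against 140.0 in hepatocytes on average). The 15 stellate cell genes summed to 28.8 to 98.5, against 16.1 to 20.6, with reprogrammed library 3 the highest. Sums were 20.6 to 30.9 against 13 to 17.7 for 14 endothelial genes, 14.8 to 34.0 against 11 to 16.1 for 16 lymphocyte and neutrophil genes, and 20.9 to 36.3 against 20.2 to 28 for 12 erythroid and platelet genes. The defining markers Ptprc (leukocytes), Adgre1 (macrophages), Pecam1 (endothelium) and Pdgfrb (stellate cells) averaged 0.530, 0.710, 1.06 and 0.567 in reprogrammed cells, against 0.341, 0.326, 0.492 and 0.111 in hepatocytes. Other members were called higher, such as Ecm1 of stellate cells (7.64, 15.7 and 26.0 in reprogrammed cells against 1.86, 3.13 and 5.88 in hepatocytes). Another was Egfl7 of endothelium (9.88, 3.78 and 7.12 against 2.72, 0.831 and 1.49). Without a call, Lyz2 stood at 54.5, 27.1 and 35.9 against 16.8, 17.6 and 22.3. Mpeg1 went the other way, at 25.5, 29.5 and 32.4 against 65.2, 45.6 and 56.4, also without a call. Ms4a1, which marks B cells, was listed at 0 in all 6 libraries. The part of such cells in the results below was not tested.

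Relative to the median gene, more rises than falls were large in reprogrammed cells. Of the genes tested 1906 were higher in reprogrammed cells (13.7%) and 802 lower (5.77%). Both counts depend on the scale, since in TPM as deposited 4240 were higher and 9 lower, and after quantile normalization 1218 and 746. Quantile normalization kept 1149 of the 1906 higher and 268 of the 802 lower calls. Among the higher genes 787 had a log2 difference above 2 and 114 above 4, up to 7.27. Among the lower genes 793 lay between -2 and -1. The other 9 were the protein-coding genes Lars2 and 1190005I06Rik and the small or structural RNA rows Rmrp, Rpph1, Snord95, Snora34, Mir6236, Mir6358 and Rn45s. Of these 9, the calls of Snord95 and 1190005I06Rik were lost in 3 and those of Snora34 and Mir6358 in 4 of the 6 fits that left out 1 library (adjusted p up to 0.18). With the library number as a block in the 6 libraries, Mir6236 (adjusted p = 0.281), Mir6358, Snora34 and 1190005I06Rik were not called, Snora34 also not with the block in 15 libraries (adjusted p = 0.051). The duct gene Krt7 was near 0 in hepatocytes and well expressed in reprogrammed cells, whereas the hepatocyte gene Alb was abundant in both. Not every duct gene was near 0 in hepatocytes. The 26 bile duct genes summed to 376 to 714 scaled TPM in hepatocyte libraries, against 6030 to 12660 in reprogrammed libraries. In bulk RNA, fewer cells of a type and less RNA per cell cannot be told apart.

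**Figure D1:**
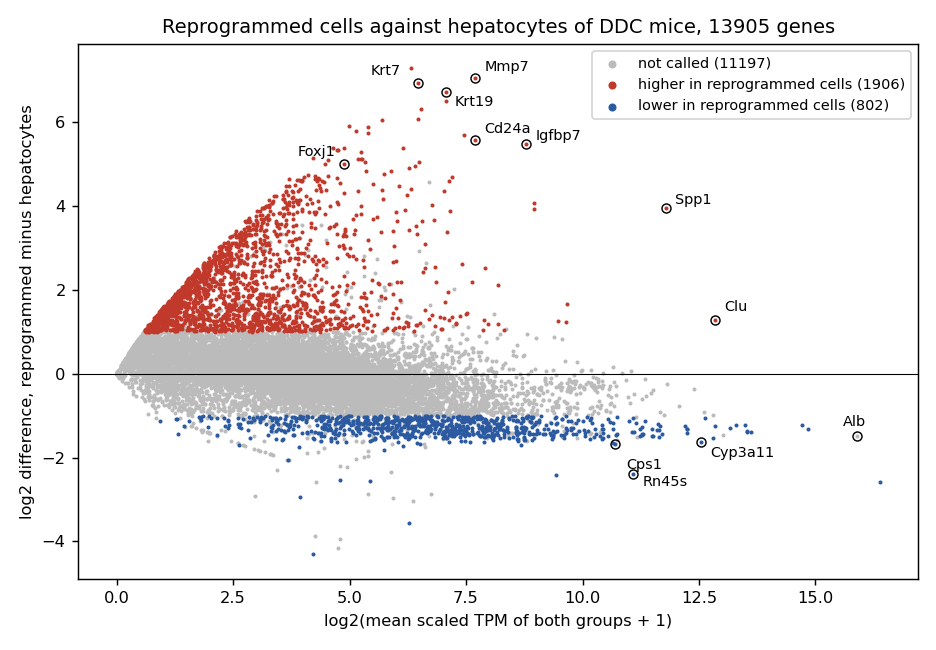
Log2 difference between reprogrammed cells and hepatocytes of DDC mice (vertical) against log2 of the mean scaled TPM of both groups plus 1 (horizontal) for 13905 genes, with called genes in red (1906 higher) and blue (802 lower). Higher genes reach 7.27, while the lower genes form a band in which 793 of 802 lie between -2 and -1.

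Among the 12 largest rises that the naming rule gave were Mmp7, Krt7, Krt19 and Epcam, the last an adhesion molecule of epithelial cells. Krt19, the partner keratin of Krt7 in ducts, stood at 243, 234 and 314 in reprogrammed cells against 1.41, 1.64 and 1.45 in hepatocytes (log2 difference 6.72, adjusted p = 4.53e-10), and Epcam at 293, 212 and 288 in reprogrammed cells against 1.92, 1.87 and 1.96 in hepatocytes (log2 difference 6.49, adjusted p = 3.82e-12). Scara3, a scavenger receptor family gene, averaged 182 ± 41.5 in reprogrammed cells against 1.28 ± 0.140 in hepatocytes (SD, n = 3 each; log2 difference 6.30). Sftpd codes for surfactant protein D, a secreted lectin of innate defence, and averaged 175 ± 50.2 in reprogrammed cells against 1.72 ± 1.12 in hepatocytes (log2 difference 6.07). Wfdc18, a gene of the whey acidic protein family, stood at 101, 98.9 and 105 in reprogrammed cells against 0.598, 0.230 and 0.890 in hepatocytes (log2 difference 6.05). The neutrophil-attracting chemokine gene Cxcl5, the GABA receptor subunit gene Gabrp and the epithelial annexin gene Anxa13 completed these rises apart from hairpin rows, with log2 differences of 5.86, 5.78 and 5.72. The rule admitted no gene whose groups overlapped.

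A further pair among these rises were rows named for microRNA hairpins. Mir7005 stood at 182, 186 and 107 in reprogrammed cells and Mir6970 at 82.7, 37.4 and 64.9, and both were listed at 0 in the 3 hepatocyte libraries. Both hairpins lie inside protein-coding genes on the same strand, Mir7005 in the laminin gene Lama5 and Mir6970 in Skiv2l, so the values are uncertain and say nothing of the mature microRNA. Lama5 itself stood at 40.6, 40.5 and 55.3 in reprogrammed cells against 4.94, 2.77 and 1.84 in hepatocytes, and Skiv2l at 29.9, 30.6 and 33.8 in reprogrammed cells against 36.8, 36.3 and 43.2 in hepatocytes with no call.

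The promoters of 6 genes are shown because they belong to the groups that moved together and hold a short motif of a factor family known for such genes. They are the 150 bases before the annotated RefSeq start on GRCm38.p6, read 5′ to 3′ along the gene, with motif matches in capitals. Motifs were searched on both strands in 250 bases before the start, and 10878 of the 13905 genes matched a listed promoter by symbol or synonym.
Ankrd1: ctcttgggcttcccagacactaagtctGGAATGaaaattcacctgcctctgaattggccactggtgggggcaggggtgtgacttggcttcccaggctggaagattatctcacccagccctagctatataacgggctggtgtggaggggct
Mmp7: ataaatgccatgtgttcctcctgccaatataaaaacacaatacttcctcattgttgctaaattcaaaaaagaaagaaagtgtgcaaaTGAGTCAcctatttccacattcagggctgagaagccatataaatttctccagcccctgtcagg
Cxcl2: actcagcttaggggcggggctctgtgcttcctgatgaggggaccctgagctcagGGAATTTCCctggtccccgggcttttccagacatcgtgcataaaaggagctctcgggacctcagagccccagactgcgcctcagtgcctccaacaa
Pkhd1: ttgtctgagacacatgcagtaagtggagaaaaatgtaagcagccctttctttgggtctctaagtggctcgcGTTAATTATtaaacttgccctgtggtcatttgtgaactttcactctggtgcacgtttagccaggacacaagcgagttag
Igfbp1: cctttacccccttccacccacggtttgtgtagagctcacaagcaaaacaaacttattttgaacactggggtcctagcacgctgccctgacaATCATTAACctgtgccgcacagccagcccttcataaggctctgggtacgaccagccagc
Cyp3a11: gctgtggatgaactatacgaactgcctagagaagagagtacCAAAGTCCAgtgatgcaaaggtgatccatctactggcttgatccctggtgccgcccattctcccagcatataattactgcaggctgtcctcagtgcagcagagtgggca
The YAP/TAZ target Ankrd1 (chr19:36119845-36119994, minus strand) holds GGAATG, the motif of the YAP partner TEAD, 123 bases before the start, and another upstream of the bases shown. Mmp7 (chr9:7691940-7692089, plus strand, the first of 2 listed starts) holds the AP-1 motif TGANTCA at 63 bases. The chemokine gene Cxcl2 (chr5:90903749-90903898, plus strand) holds the NF-kB motif GGAATTTCC at 96 bases. Pkhd1 (chr1:20618058-20618207, minus strand), a duct gene that rose, and Igfbp1 (chr11:7197637-7197786, plus strand), a hepatocyte gene that fell, both hold the HNF1 motif GTTAATNAT, at 79 and 59 bases, the second on the other strand. The P450 gene Cyp3a11 (chr5:145879855-145880004, minus strand) holds the HNF4 motif CAAAGTCCA at 109 bases. Over the 10835 different RefSeq genes matched, 13% held the TEAD, 5.88% the AP-1, 0.378% the NF-kB, 0.720% the HNF1 and 0.535% the HNF4 motif on either strand. These matches describe letters in a window and do not show binding. Cxcl2 and Igfbp1 were chosen for display after their values were seen.

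Most genes of bile duct identity rose. Of 26 tested 23 were higher and none lower, with a median log2 difference of 4.10, beside 0.06 over all genes. Spp1, the secreted phosphoprotein osteopontin, was the most abundant, at 9625, 3623 and 6704 in reprogrammed cells against 440.4, 253 and 563 in hepatocytes (log2 difference 3.95, adjusted p = 2.91e-06). The duct transcription factor gene Sox9 stood at 80.1, 52.4 and 68.6 in reprogrammed cells against 11.3, 5.56 and 12.2 in hepatocytes (log2 difference 2.71, adjusted p = 7.94e-07). Neither gene overlapped between the groups, as 48.6% of all genes tested did not, and their hepatocyte levels were well above 0. The members without a call were the stem cell antigen gene Prom1 (log2 difference 0.99, adjusted p = 0.0517), the epithelial transcription factor gene Elf3 (log2 difference 1.38, adjusted p = 0.0572) and the water channel gene Aqp1 (log2 difference 0.98, adjusted p = 0.0702). Prom1 was called without hepatocyte library 2 or 3, with log2 differences from 1.23 to 1.37, Elf3 called without hepatocyte library 1, with log2 difference 2.14 and Aqp1 called without reprogrammed library 1 or hepatocyte library 3, with log2 differences from 1.25 to 1.41. With the library number as a block in 15 libraries Elf3 was called (adjusted p = 0.0478).

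**Figure D2:**
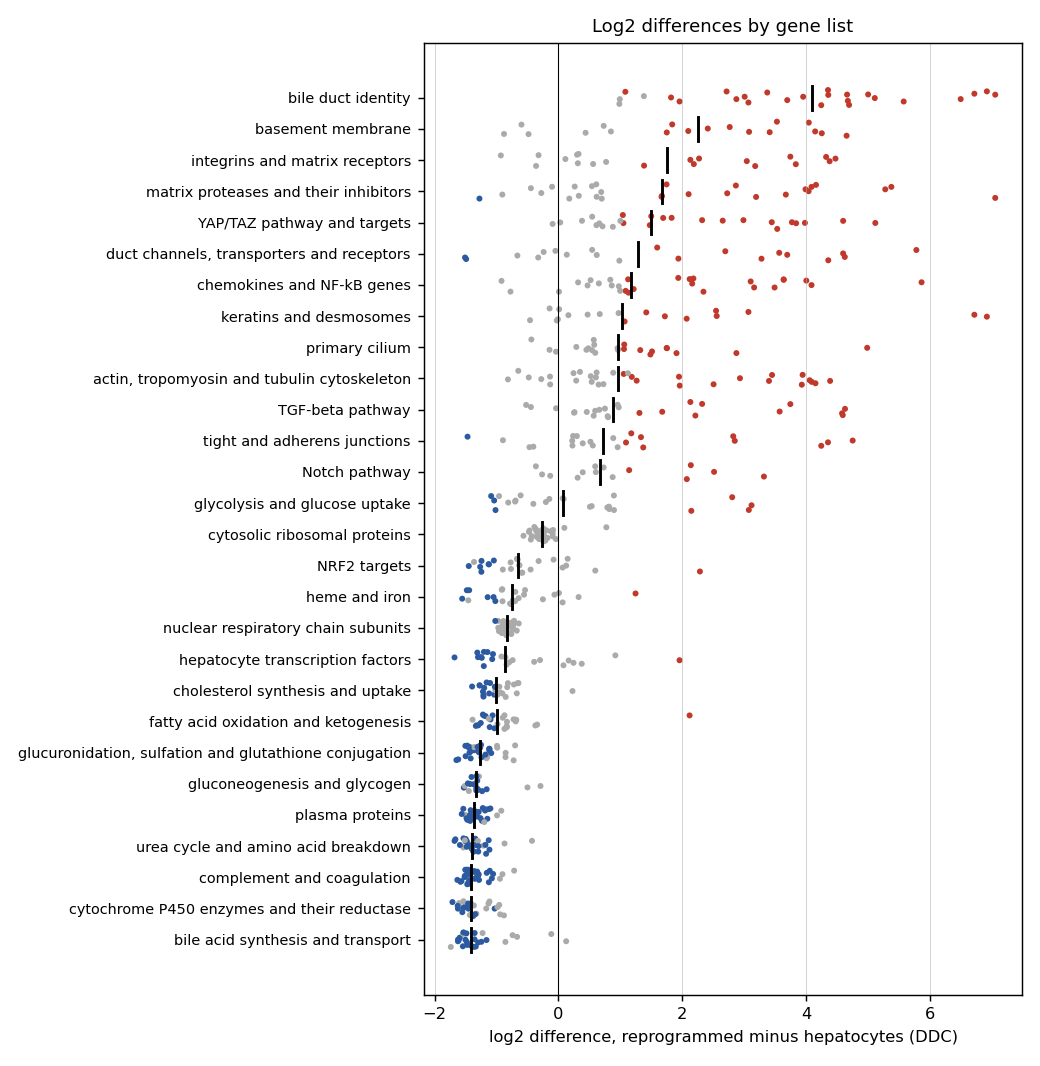
Log2 difference between reprogrammed cells and hepatocytes of DDC mice for the members of 28 gene lists, 1 point a gene, red where called higher, blue where called lower, grey where not called, with a black bar at the list's median. Duct, basement membrane and integrin genes spread to the right up to 7.05, whereas most members of the hepatocyte lists lie to the left of 0, none below -2.

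Against biliary cells of DDC mice the bile duct genes were somewhat lower. Of the 26 members none was higher and 6 lower in reprogrammed than in biliary cells, where 2.78% of all genes were higher and 0.734% lower (3.51% in either direction). Mmp7 stood at 376, 427 and 434 in reprogrammed libraries and 847, 1016 and 1014 in biliary libraries (log2 difference -1.21, adjusted p = 0.0032). Krt19 stood at 243, 234 and 314 in reprogrammed libraries and 465, 533 and 672 in biliary libraries (log2 difference -1.07, adjusted p = 0.0116). The groups overlapped in neither gene. Krt7 averaged 174 ± 37.0 in reprogrammed cells and 306 ± 91.0 in biliary cells, and Epcam 265 ± 45.6 in reprogrammed cells and 477 ± 46.0 in biliary cells, both with no call (log2 differences -0.78 and -0.86). Sox9 and Spp1 also had no call, with log2 differences of -0.57 and -0.44.

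Within the epithelial framework the duct keratins changed and the common ones did not pass. Of 18 keratin and desmosome genes 9 were higher and none lower (median 1.02). Besides Krt7 and Krt19 these included Krt23 (mean 48.9 in reprogrammed cells against 6.97 in hepatocytes, log2 difference 3.07), the plakophilin gene Pkp3 (log2 difference 2.56) and Vim, the intermediate filament of mesenchymal and some duct cells (66.7 in reprogrammed cells against 10.6 in hepatocytes, log2 difference 2.54). Krt8 and Krt18, the keratins of every liver epithelium, averaged 1821 and 1372 in reprogrammed cells, against 2082 and 1393 in hepatocytes (log2 differences -0.14 and 0.01). Of 22 junction genes 9 were higher and 1 lower (median 0.72). Claudin genes, whose proteins set the permeability of tight junctions, were called in both directions. Cldn4 stood at 171, 232 and 336 in reprogrammed cells against 24.9, 4.69 and 9.75 in hepatocytes, and Cldn6 and Cldn7 had log2 differences of 4.75 and 4.24. Cldn3 averaged 293 in reprogrammed cells against 237 in hepatocytes with no call. The junction gene that fell was also a claudin gene, Cldn1, at 29.2, 61.8 and 34.4 in reprogrammed cells against 108, 116 and 111 in hepatocytes (log2 difference -1.47, adjusted p = 0.00108).

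Genes by which ducts secrete and sense bile rose in part. Of 22 listed channels, transporters and receptors 20 passed the filter, of which 10 were higher and 2 lower (median 1.29). Cftr, the chloride channel of cystic fibrosis, stood at 42.4, 13.4 and 19.7 in reprogrammed cells against 0.233, 0.0673 and 0.141 in hepatocytes (log2 difference 4.36, adjusted p = 5.66e-07). The calcium-activated chloride channel gene Ano1, the potassium channel gene Kcnn4 and Sctr, the secretin receptor, had log2 differences of 4.60, 4.62 and 3.69. Uncalled members included the anion exchanger gene Slc4a2 (log2 difference 0.13) and the ileal-type bile acid transporter gene Slc10a2 (log2 difference -0.33).

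The primary cilium, which biliary cells carry and hepatocytes lack, was represented by 22 genes, of which 10 were higher and none lower (median 0.96), or 6 higher after quantile normalization. Pkhd1, the fibrocystin gene of polycystic liver and kidney disease, averaged 25.2 ± 11.3 in reprogrammed cells against 2.42 ± 0.775 in hepatocytes (log2 difference 2.87, adjusted p = 2.93e-06), and the kinesin gene Kif3a 12.5 in reprogrammed cells against 2.6 in hepatocytes (log2 difference 1.91). Foxj1, a transcription factor of motile cilia, stood at 57.7, 41.6 and 69.1 in reprogrammed cells against 1.44, 0.175 and 0.930 in hepatocytes (log2 difference 4.98, adjusted p = 7.07e-09) and showed the largest difference of the list. All reprogrammed libraries lay above all hepatocyte libraries for these 3 genes. Over all genes tested the groups did not overlap, in either direction, for 48.6%.

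Targets of the YAP/TAZ pathway, which responds to cell shape and stiffness, were among the genes that rose, while its coactivators were not called. Of 25 genes 16 were higher and none lower (median 1.5). Ankrd1 stood at 90.0, 67.8 and 63.3 in reprogrammed cells against 0.660, 1.16 and 1.69 in hepatocytes (log2 difference 5.12, adjusted p = 9.44e-09), and Ctgf, a secreted matrix-associated factor, at 287, 232 and 289.8 in reprogrammed cells against 8.88, 17.2 and 6.68 in hepatocytes (log2 difference 4.60, adjusted p = 1.10e-08). Tead2, a DNA-binding partner of YAP, averaged 22.4 in reprogrammed cells against 0.475 in hepatocytes (log2 difference 3.98). The coactivator genes Yap1 (41.1 in reprogrammed cells against 44.0 in hepatocytes, log2 difference -0.09) and Wwtr1 (27.2 in reprogrammed cells against 17.4 in hepatocytes, log2 difference 0.61) did not reach the call.

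Of 19 Notch genes 14 passed the filter, of which 5 were higher and none lower (median 0.67). The ligand gene Jag1 stood at 55.8, 38 and 48.8 in reprogrammed cells against 4.22, 4.53 and 2.85 in hepatocytes (log2 difference 3.32, adjusted p = 5.56e-09). The target Hes1 averaged 98.2 ± 18.6 in reprogrammed cells against 52.1 ± 35.4 in hepatocytes with overlapping libraries (log2 difference 1.14, adjusted p = 0.0413), a call lost without reprogrammed library 1, 2 or 3 or hepatocyte library 1 or 2, with adjusted p from 0.063 to 0.157, and the receptor gene Notch2 had a log2 difference of 0.59 with no call. Of 24 TGF-beta genes 10 were higher and none lower (median 0.88). The latent TGF-beta binding protein genes Ltbp3 (log2 difference 4.63) and Ltbp2 (log2 difference 4.58) and the activators Thbs1 (log2 difference 4.59) and Itgb6 (log2 difference 3.74) led, while the receptor gene Tgfbr2 had a log2 difference of -0.52 and the mediator Smad4 one of 0.46, both without a call. Of 23 genes of EGF, HGF and FGF signalling 19 passed the filter, and 5 were higher and none lower, with a median of 0.07 that turned to -0.19 after quantile normalization. The receptor gene Fgfr3 averaged 76.3 in reprogrammed cells against 8.59 in hepatocytes (log2 difference 2.96) and Erbb2 11.6 in reprogrammed cells against 0.263 in hepatocytes (log2 difference 3.29), whereas the EGF receptor gene Egfr averaged 42.0 in reprogrammed cells against 60.8 in hepatocytes (log2 difference -0.52, no call).

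Transcripts of most basement membrane genes tested were higher in reprogrammed cells. Of 20 basement membrane genes 18 passed the filter, and 12 were higher and none lower (median 2.25). The nidogen genes Nid1 and Nid2 had negative log2 differences of -0.60 and -0.48, without a call. Lamb3, which codes for a laminin chain, averaged 31.0 in reprogrammed cells against 0.935 in hepatocytes (log2 difference 4.04). Lama4 (log2 difference 4.25), Lama5 (log2 difference 3.53) and the perlecan gene Hspg2 (log2 difference 4.14) rose as well, whereas Col18a1 averaged 243 in reprogrammed cells against 441 in hepatocytes (log2 difference -0.88, no call, but called without reprogrammed library 2, with log2 difference -1.06). Of 20 integrins and matrix receptors 11 were higher and none lower (median 1.76), with Itgb4, the laminin-binding subunit of hemidesmosomes, at 20.9, 19.6 and 27.3 in reprogrammed cells against 0.174, 0.130 and 0.205 in hepatocytes (log2 difference 4.32, adjusted p = 6.40e-10). The hyaluronan receptor gene Cd44 stood at 144, 97.1 and 139 in reprogrammed cells against 9.02, 2.57 and 4.08 in hepatocytes (log2 difference 4.47, adjusted p = 1.19e-07). The heparan sulfate proteoglycan gene Sdc1, typical of hepatocytes, averaged 149 in reprogrammed cells against 283 in hepatocytes (log2 difference -0.93, no call, but called without reprogrammed library 2 or 3 or hepatocyte library 2, with log2 differences from -1.02 to -1.01).

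Of 28 proteases and inhibitors tested (32 listed) 15 were higher and 1 lower (median 1.67). After Mmp7 the largest differences were of the inhibitors Spint1 (56.5 in reprogrammed cells against 0.406 in hepatocytes, log2 difference 5.37), Timp2 (72.6 in reprogrammed cells against 0.887 in hepatocytes, log2 difference 5.28) and Timp3 (log2 difference 4.16), and of Plau, the urokinase gene (22.0 in reprogrammed cells against 0.328 in hepatocytes, log2 difference 4.09). Of 17 fibrillar and interstitial matrix genes tested (22 listed) 8 were higher and none lower (median 1.01). That count was 5 without reprogrammed library 3, 10 without reprogrammed library 2 and 3 after quantile normalization. Sparc, a collagen-binding protein, stood at 200.1, 116 and 173 in reprogrammed cells against 5.94, 2.87 and 4.20 in hepatocytes (log2 difference 4.95, adjusted p = 4.13e-09). Stellate cell marker sums were highest in reprogrammed library 3, where the proteoglycan gene Dcn reached 32.5, against 1.09, 6.44 and 5.81 in the hepatocyte libraries. Dcn had no call (log2 difference 1.44, adjusted p = 0.178) except with the library number as a block (adjusted p = 0.00918 in 15 libraries).

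Of 32 cytoskeleton genes 15 were higher and none lower (median 0.97). Tmsb4x, the actin-binding peptide thymosin beta 4, stood at 864, 779 and 1185 in reprogrammed cells against 56.0, 40.0 and 73.3 in hepatocytes (log2 difference 4.06, adjusted p = 1.40e-08). The crosslinker filamin A (Flna), moesin (Msn) and the tubulin gene Tuba1a had log2 differences of 4.39, 4.09 and 4.15, while beta-actin (Actb) averaged 1033 in reprogrammed cells against 848 in hepatocytes (log2 difference 0.29, no call). Of 22 annexin and S100 genes tested 7 were higher and none lower (median 0.73), or 11 higher without reprogrammed library 2. S100a6 stood at 181, 208 and 343 in reprogrammed cells against 49.1, 10.1 and 20.4 in hepatocytes (log2 difference 3.37) and Anxa3 at 172, 114 and 233 in reprogrammed cells against 4.02, 3.07 and 5.45 in hepatocytes (log2 difference 5.04). With the number of the libraries as a block 1 member of this list was lower in the fit of 15 libraries and none in the fit of 6.

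**Figure D3:**
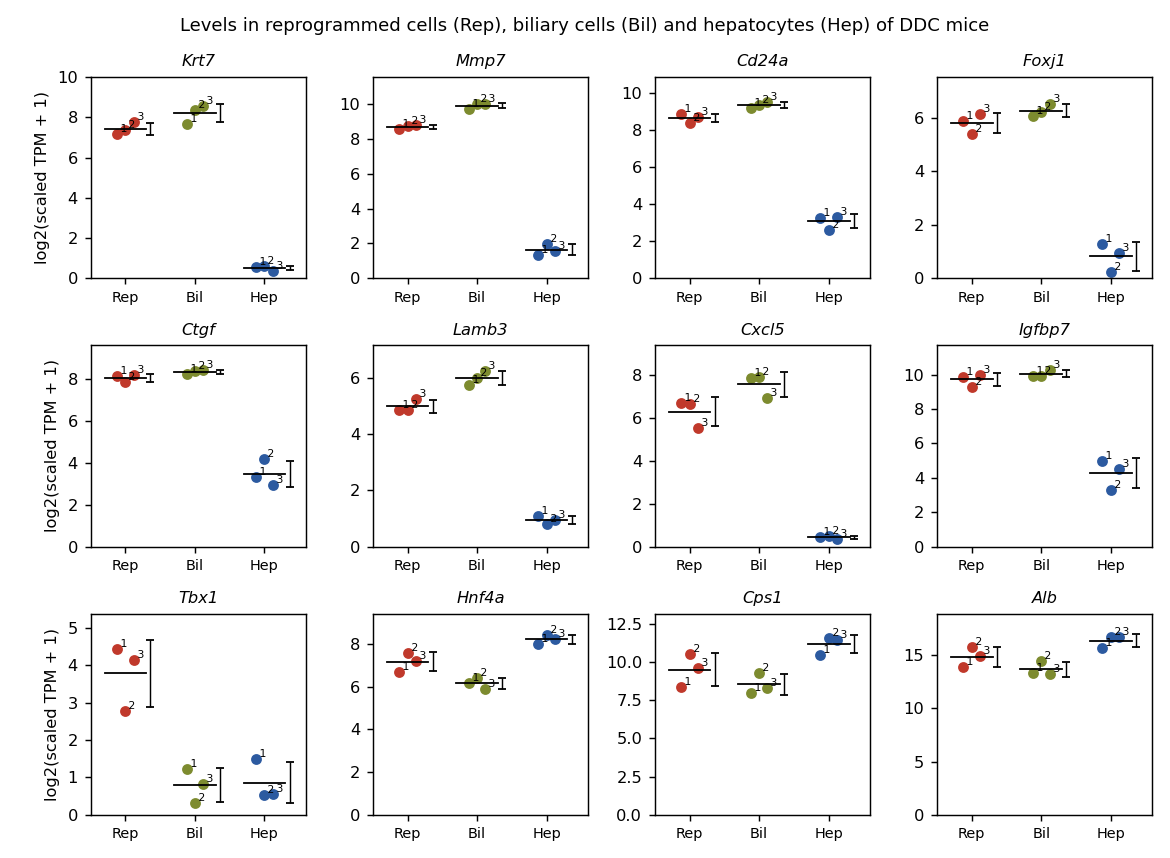
Scaled TPM of 12 genes as log2(scaled TPM + 1) (vertical, from 0) in reprogrammed cells (Rep), biliary cells (Bil) and hepatocytes (Hep) of DDC mice, 1 numbered point a library, with the mean as a line and the SD as a bar (n = 3). Duct, matrix and chemokine genes of reprogrammed cells lie far above hepatocytes. Among them Mmp7 and Cxcl5 were called lower than in biliary cells (log2 differences -1.21 and -1.29). Hnf4a, Cps1 and Alb lie between the other groups in mean, and Tbx1 lies above both.

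Many genes of signals to immune cells rose. Of 28 chemokine and NF-kB genes tested (30 listed) 17 were higher, none was lower and 11 had no call (median 1.17). Cxcl5 stood at 102, 101 and 44.8 in reprogrammed cells against 0.371, 0.386 and 0.280 in hepatocytes (log2 difference 5.86, adjusted p = 3.74e-08), and Ccl20, which attracts CCR6-positive lymphocytes and dendritic cells, at 51.4, 8.14 and 16.4 in reprogrammed cells against 0, 0.370 and 0.239 in hepatocytes (log2 difference 4.09, adjusted p = 6.31e-05). The leukocyte adhesion gene Vcam1 averaged 172 ± 31.0 in reprogrammed cells against 13 ± 3.45 in hepatocytes (log2 difference 3.64) and the IL-1 receptor antagonist gene Il1rn 69.9 ± 42.6 in reprogrammed cells against 4.54 ± 5.56 in hepatocytes (log2 difference 4.00). The reprogrammed libraries were all higher for each of these 4 genes, beside 48.6% of all genes without overlap in either direction. Lcn2, an antimicrobial protein of the acute phase, was abundant in both groups, at 1842 ± 103 in reprogrammed cells against 1861 ± 404 in hepatocytes (log2 difference 0.01, adjusted p = 0.994).

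Beside 13.7% higher and 5.77% lower of all genes, 4 of 16 antigen presentation genes were higher and none lower (median 0.49). They were the invariant chain gene Cd74 (308, 141 and 158 in reprogrammed cells against 45.3, 6.51 and 9.11 in hepatocytes, log2 difference 3.65, adjusted p = 1.60e-04) and the MHC class II genes H2-Ab1 (log2 difference 2.46), H2-DMb1 (log2 difference 2.30) and H2-Aa (log2 difference 1.42), the last with overlapping libraries and lost without reprogrammed library 1 or 3 or hepatocyte library 2 or 3, with adjusted p from 0.0548 to 0.186. MHC class II is also carried by macrophages, B cells and dendritic cells. The macrophage genes Csf1r (13.7 in reprogrammed cells against 2.94 in hepatocytes, log2 difference 1.86) and C1qc (6.73 in reprogrammed cells against 2.40 in hepatocytes, log2 difference 1.13) were higher too, the second call being lost without reprogrammed library 2 or 3 or hepatocyte library 1, 2 or 3, with adjusted p from 0.053 to 0.107, and their part in the Cd74 values was not tested. Class I genes H2-K1 and H2-D1 had log2 differences of 0.09 and 0.08, without a call. Of 25 listed mucin and secretory defence genes 15 passed the filter, of which 7 were higher and 1 lower (median 1.0). The lower share was near the 5.77% of all genes. The lower count was 2 with the number block and 3 without hepatocyte library 2. Muc1, a membrane mucin, averaged 42.3 ± 21.1 in reprogrammed cells against 0.253 ± 0.0777 in hepatocytes (log2 difference 5.00), and Wfdc2 stood at 230.2, 159 and 223 in reprogrammed cells against 16.9, 6.66 and 13.3 in hepatocytes (log2 difference 4.02).

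Few proliferation genes were called. Of 31 cell cycle and replication genes 4 were higher, a share near the 13.7% of all genes, and none lower, and the median was 0.08, 1.47 and 0.01 between libraries numbered 1, 2 and 3. The count was 2 without reprogrammed library 1 and 9 without hepatocyte library 1. Ccnd2, a D-type cyclin gene, stood at 41.8, 13.4 and 15.7 in reprogrammed cells against 0.682, 0.0984 and 0.333 in hepatocytes (log2 difference 4.01, adjusted p = 2.51e-06), whereas the more abundant Ccnd1 averaged 139 ± 34.3 in reprogrammed cells against 129 ± 67.9 in hepatocytes (log2 difference 0.20, adjusted p = 0.671). Of 23 senescence and p53 genes 6 were higher and none lower (median 0.62). The cyclin-dependent kinase inhibitor gene Cdkn2a stood at 7.04, 4.43 and 4.15 in reprogrammed cells against 0, 0.213 and 0 in hepatocytes (log2 difference 2.51, adjusted p = 1.03e-06) and its neighbour Cdkn2b at 13.2, 9.57 and 18.1 in reprogrammed cells against 3.24, 0.475 and 2.01 in hepatocytes (log2 difference 2.42, adjusted p = 1.12e-04). Both were above 2 scaled TPM in every reprogrammed library. Of 24 immediate early genes 6 were higher and none lower (median 0.70), or 3 without hepatocyte library 3. They included Ier3 (log2 difference 3.32) and the zinc finger gene Egr1 (log2 difference 1.27), while Jun averaged 215 in reprogrammed cells against 156 in hepatocytes (log2 difference 0.46, no call).

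Genes of fetal liver and of mesenchymal change were called in part. Of 15 fetal and progenitor genes tested (20 listed) 6 were higher and none lower (median 0.44, and -0.24 after quantile normalization), including Cd24a and Tspan8 (log2 difference 4.67). Afp, the fetal counterpart of albumin, stood at 3.91, 4.53 and 5.96 in reprogrammed cells against 4.26, 6.21 and 9.11 in hepatocytes (log2 difference -0.34, adjusted p = 0.321). Of 12 mesenchymal transition genes tested (18 listed) 2 were higher, Vim and Sparc, and 1 lower, Snai2 (log2 difference -1.34). These shares are near the 13.7% higher and 5.77% lower of all genes. The median of this list was 0.38, and -0.22 after quantile normalization. Cdh2, the N-cadherin of hepatocytes, averaged 48.9 ± 2.16 in reprogrammed cells against 68.2 ± 6.75 in hepatocytes (log2 difference -0.47, adjusted p = 0.00111, under the size for a call).

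Most genes of hepatocyte function were lower in reprogrammed cells, though not all passed the test. Over 11 lists of plasma, complement and acute-phase proteins and of metabolism, from the urea cycle and P450 enzymes to lipids and glucose (299 different genes tested), 189 were lower and 2 higher, and 293 had a negative difference. The median was -1.30, the quartiles were -1.43 and -1.02, and the lowest member was at -1.74. The medians were -1.48, -0.85 and -1.53 between libraries numbered 1, 2 and 3. The number of lower genes was 30 after quantile normalization, 124 without reprogrammed library 1, 121 with only the 6 compared libraries in the fit and 0 in TPM as deposited, so the falls hold relative to the median gene. In each of the 11 lists it was 0 to 7 after quantile normalization. With the library number as a block, 225 of the 299 genes were lower in the fit of 15 libraries and 215 in the fit of 6. In biliary cells of DDC mice the same transcripts were present at lower levels, with Alb at 15174, 56023 and 29965 in reprogrammed and 9939, 22495 and 9606 in biliary libraries, and Cps1 at 327, 1489 and 789 in reprogrammed and 254, 637 and 320.0 in biliary libraries. The part of hepatocyte RNA from neighbouring cells in these levels was not tested.

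**Figure D4:**
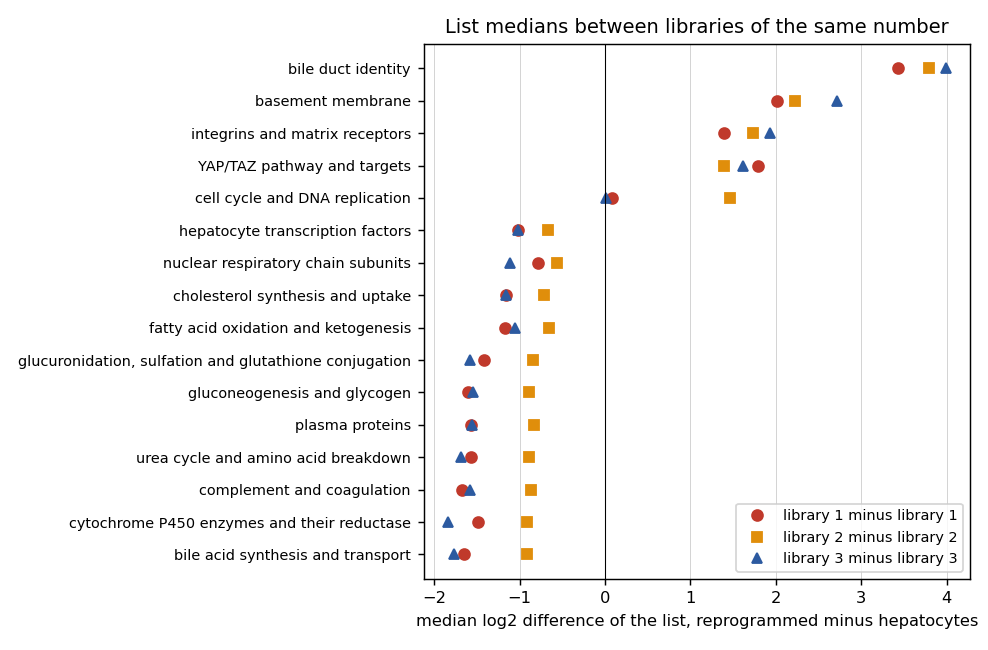
Median log2 difference between the reprogrammed and the hepatocyte library of the same number (horizontal) for 16 gene lists (vertical), with 1 symbol for each of the numbers 1, 2 and 3. Most hepatocyte lists lie further left for numbers 1 and 3 (median -1.48 and -1.53 over their 299 genes) than for number 2 (-0.85), while bile duct, basement membrane, integrin and YAP/TAZ lists lie to the right of 0 for all 3 numbers.

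Of 23 hepatocyte transcription factor genes 10 were lower and 1 higher (median -0.86). Hnf4a, the central factor of hepatocyte identity, stood at 103, 191 and 149 in reprogrammed cells against 254, 345 and 303 in hepatocytes without overlap (log2 difference -1.06, adjusted p = 0.00133), and its call, close to the bound on size, was lost without reprogrammed library 1 or hepatocyte library 2, with log2 differences from -0.95 to -0.82. Nr1i3, the xenobiotic receptor CAR, had the largest fall of the list (20.4, 67.9 and 45.7 in reprogrammed cells against 83.3, 162 and 163 in hepatocytes, log2 difference -1.68, adjusted p = 0.00477). Cebpa averaged 107 ± 16.2 in reprogrammed cells against 203 ± 29.4 in hepatocytes (log2 difference -0.92, adjusted p = 8.34e-04), below the size for a call but called without reprogrammed library 2, with log2 difference -1.02, and the bile acid receptor gene Nr1h4 had a log2 difference of -0.86. Onecut1, which acts in both hepatocyte and duct development, was the member that rose (31.1, 15.6 and 14.7 in reprogrammed cells against 7.03, 7.25 and 1.17 in hepatocytes, log2 difference 1.95, adjusted p = 0.0378), a call lost without reprogrammed library 1, 2 or 3 or hepatocyte library 3, with adjusted p from 0.0523 to 0.165.

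Transcripts of secreted liver proteins were abundant in reprogrammed cells at lower levels than in hepatocytes. Of 30 plasma protein genes 26 were lower (median -1.37), or 12 without reprogrammed library 1, 6 with only the 6 compared libraries and 0 after quantile normalization. Apoc3, an inhibitor of lipoprotein lipase, stood at 2013, 5434 and 3708 in reprogrammed cells against 6599, 9968 and 15066 in hepatocytes (log2 difference -1.54, adjusted p = 0.00658). Of 35 complement and coagulation genes 32 were lower (median -1.41). The complement genes C8g (82.2, 182 and 139.9 in reprogrammed cells against 302, 328 and 580.0 in hepatocytes, log2 difference -1.58, adjusted p = 0.0012) and Hc, which codes for C5 (log2 difference -1.51), and the lectin gene Mbl2 (log2 difference -1.57) were among them, while C3 averaged 4357 ± 1180.0 in reprogrammed cells against 8096 ± 1807 in hepatocytes (log2 difference -0.90, no call, but called without reprogrammed library 2 or hepatocyte library 3, with log2 differences from -1.11 to -1.03). Of 24 acute-phase genes 15 were lower (median -1.34), or 7 without reprogrammed library 1 and 4 with only the 6 compared libraries. They included Orm1, a plasma glycoprotein (log2 difference -1.38). Hamp, the iron hormone hepcidin, overlapped between the groups (1768, 7375 and 4554 in reprogrammed cells against 5207, 13189.7 and 17852 in hepatocytes, log2 difference -1.46, adjusted p = 0.0866) and was called without reprogrammed library 2 or hepatocyte library 1, with log2 differences from -1.98 to -1.92 and with the library number as a block in 15 libraries (adjusted p = 0.00428).

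Genes of nitrogen and drug metabolism fell in part. Of 32 genes that break down amino acids or form urea 24 were lower (median -1.39), or 10 without reprogrammed library 1 and 12 with only the 6 compared libraries. Ass1, which joins citrulline and aspartate, overlapped like Cps1 (361, 1298 and 738 in reprogrammed cells against 1272, 2398 and 3621 in hepatocytes, log2 difference -1.66, adjusted p = 0.0122), whereas Gls2, the glutaminase of periportal hepatocytes, did not (41.4, 149 and 84.6 in reprogrammed cells against 160.3, 269 and 283 in hepatocytes, log2 difference -1.5, adjusted p = 0.0121). The call of Ass1 was lost without reprogrammed library 1 or hepatocyte library 3, with adjusted p from 0.058 to 0.0603 and that of Gls2 lost without reprogrammed library 1, with adjusted p = 0.0578. Of 29 cytochrome P450 genes and their reductase 13 were lower (median -1.41), and 25 with the library number as a block in 15 or in 6 libraries. Cyp3a11, a main enzyme of drug oxidation in mouse liver, stood at 2677, 4815 and 1807 in reprogrammed cells against 8832, 9184 and 8469.8 in hepatocytes (log2 difference -1.63, adjusted p = 0.0043), Cyp3a25 at 102, 337 and 165 in reprogrammed cells against 385, 734 and 718 in hepatocytes (log2 difference -1.71). Of 32 conjugation genes 23 were lower (median -1.27). The glucuronosyltransferase gene Ugt2b1 stood at 35, 49.5 and 38.2 in reprogrammed cells against 139.5, 101 and 152 in hepatocytes with no overlap (log2 difference -1.65, adjusted p = 7.91e-05). P450 and Ugt2 genes are families of near-identical copies, so the split of their reads between members is uncertain.

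The genes of bile acid handling that fell included some of uptake and some of export. Of 27 genes tested (29 listed) 18 were lower (median -1.41), or 11 without reprogrammed library 1. Abcb11, the bile salt export pump, stood at 69.6, 116 and 66.7 in reprogrammed cells against 261, 247 and 242 in hepatocytes (log2 difference -1.61, adjusted p = 5.86e-05), and the uptake carrier gene Slco1b2 at 117, 135 and 91.1 in reprogrammed cells against 419, 264 and 386 in hepatocytes (log2 difference -1.62, adjusted p = 2.09e-04). Cyp7a1, the rate-limiting enzyme of bile acid synthesis, had 17.5, 113 and 23.1 in reprogrammed cells against 65.7, 248 and 113 in hepatocytes with overlap and no call (log2 difference -1.74, adjusted p = 0.0654), but was called without reprogrammed library 2 or hepatocyte library 1, with log2 differences from -2.55 to -2.18 and with the library number as a block (adjusted p = 1.92e-04 in 15 libraries). Of 26 cholesterol synthesis and uptake genes 13 were lower (median -1.01), 5 without reprogrammed library 1, 6 with only the 6 compared libraries and 21 without reprogrammed library 2. Sc5d, a desaturase of late cholesterol synthesis, stood at 133, 235 and 152 in reprogrammed cells against 375, 404 and 446 in hepatocytes (log2 difference -1.27, adjusted p = 3.20e-04).

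Genes of glucose and fat metabolism were called in part. Of 20 gluconeogenesis and glycogen genes 15 were lower (median -1.32), including Ppp1r3b, which targets a phosphatase to glycogen (10.7, 33.3 and 13.4 in reprogrammed cells against 39.6, 67.0 and 42.9 in hepatocytes, log2 difference -1.46, adjusted p = 0.00937). Of 24 glycolysis and glucose uptake genes tested (26 listed) 4 were higher, a share near the 13.7% of all genes, and 3 lower (median 0.08). The 4 higher genes were hexokinase Hk1 (9.56, 9.31 and 9.72 in reprogrammed cells against 0.260, 0.212 and 0.170 in hepatocytes, log2 difference 3.12, adjusted p = 3.40e-09), phosphofructokinase Pfkp (log2 difference 2.15), pyruvate kinase Pkm (29.1 in reprogrammed cells against 3.29 in hepatocytes, log2 difference 2.81) and lactate dehydrogenase Ldhb (log2 difference 3.07). Ldha, the main lactate dehydrogenase gene of liver, averaged 476 ± 67.2 in reprogrammed cells against 1034 ± 313 in hepatocytes (log2 difference -1.09, adjusted p = 3.89e-04), a call lost without reprogrammed library 1 or hepatocyte library 3, with log2 differences from -0.97 to -0.85. The number of lower glycolysis genes was 1 without reprogrammed library 1. Of 27 fatty acid oxidation genes 10 were lower and 1, Acot1, higher (median -0.99), the call of Acot1 being lost without reprogrammed library 1 or 3 or hepatocyte library 2, with adjusted p from 0.0606 to 0.0877. Of 24 lipogenesis genes tested (25 listed) 6 were lower and 1 higher (median -0.92). Of the desaturase genes, Scd2 stood at 50.3, 39.3 and 53.7 in reprogrammed cells against 3.43, 4.92 and 6.63 in hepatocytes (log2 difference 3.05, adjusted p = 2.99e-07) and Scd1 at 332, 1386 and 573 in reprogrammed cells against 1217, 2736 and 1989 in hepatocytes (log2 difference -1.55, adjusted p = 0.0218, with overlap and lost without reprogrammed library 1 or 3 or hepatocyte library 2 or 3, with adjusted p from 0.0578 to 0.104).

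Heme synthesis, the pathway that DDC blocks, was listed together with heme breakdown and iron genes. Of the 24 heme and iron genes 6 were lower and 1 higher, with a median of -0.75 (0.02 as deposited). The lower count was 1 after quantile normalization. Most heme synthesis genes of the list had no call, among them Fech (log2 difference -0.70). Alas1, the first and rate-limiting enzyme of hepatic heme synthesis, stood at 93.5, 196 and 123 in reprogrammed cells against 258, 414 and 463 in hepatocytes (log2 difference -1.48, adjusted p = 0.00699). The higher member was Bmp6, an inducer of hepcidin (28.5, 18.6 and 27.9 in reprogrammed cells against 19.1, 6.82 and 7.0 in hepatocytes, log2 difference 1.24, adjusted p = 0.00691, with overlap). Of 25 NRF2 targets 7 were lower and 1 higher (median -0.66, 0.12 as deposited), and 3 were lower without reprogrammed library 1. The lower ones included glutathione transferases, among them Gstm1 (4433 ± 1333 in reprogrammed cells against 10209 ± 450.4 in hepatocytes, log2 difference -1.24), whose family shares sequence and whose call was lost with the number block in 6 libraries (adjusted p = 0.0792), and the higher one was G6pdx, the entry enzyme of the pentose phosphate pathway (21.9, 20.9 and 24.6 in reprogrammed cells against 2.73, 3.53 and 5.60 in hepatocytes, log2 difference 2.28, adjusted p = 9.90e-07). Of 24 unfolded protein and amino acid stress genes 3 were higher and 1 lower, shares near the 13.7% and 5.77% of all genes. The median was -0.56 (0.19 as deposited), and 3 were lower without hepatocyte library 2. Phgdh, the first step of serine synthesis, stood at 19.5, 12 and 19.5 in reprogrammed cells against 0.943, 0 and 0.324 in hepatocytes (log2 difference 3.69). The chaperone gene Hspa5 was uncalled (log2 difference -0.63).

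Binding proteins of insulin-like growth factor moved in opposite directions. Igfbp7 stood at 939, 633 and 1029.8 in reprogrammed cells against 31.1, 8.73 and 22.2 in hepatocytes (log2 difference 5.46, adjusted p = 9.72e-08), the most abundant of the genes whose log2 difference exceeded 5. Igfbp3 also rose (14.2 in reprogrammed cells against 0.729 in hepatocytes, log2 difference 3.15), whereas Igfbp2 fell to 142, 297 and 162 in reprogrammed cells against 505, 563 and 682 in hepatocytes (log2 difference -1.60, adjusted p = 0.00171). They belong to a list of 23 growth hormone and STAT5 genes, of which 4 were higher and 7 lower (median -0.63), beside 13.7% and 5.77% of all genes. The higher count was 2 without reprogrammed library 1.

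Few mitochondrial and lysosomal genes were called, beside the 5.77% of all genes that were lower. Of 30 nuclear respiratory chain genes 1, Cox5a (log2 difference -1.02; lost without reprogrammed library 1 or 3 or hepatocyte library 3, with log2 differences from -0.99 to -0.83), was lower, and the median was -0.83 (-0.03 as deposited). The groups did not overlap for any of the 30, beside 48.6% of all genes tested, and 12 were lower without reprogrammed library 2. Of 26 lysosome genes 2 were lower, Ctsl (log2 difference -1.18; lost without reprogrammed library 1, with log2 difference -0.86) and Lipa (log2 difference -1.15), with a median of -0.44 (0.32 as deposited), and 4 without hepatocyte library 2. None of 32 ribosomal protein genes was called, with a median of -0.26 that was 0.54 as deposited and 0.46 after quantile normalization. At an unadjusted p under 0.05, 8 of the 32 differed, beside 7575 of the 13905 genes tested.

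Among the largest falls were several of structural RNA. Rmrp, the RNA of a mitochondrial and nucleolar endoribonuclease, stood at 0, 1.45 and 0 in reprogrammed cells against 16, 74.1 and 13.9 in hepatocytes, and Rpph1, the RNA of ribonuclease P, at 3.70, 1.89 and 2.18 in reprogrammed cells against 24.0, 27.7 and 25.9 in hepatocytes (log2 difference -2.93, adjusted p = 0.00229). Rn45s, the ribosomal RNA precursor, stood at 816, 674 and 563 in reprogrammed cells against 4749, 3700.2 and 2517 in hepatocytes (log2 difference -2.38, adjusted p = 9.36e-06), and Lars2, a mitochondrial leucyl-tRNA synthetase gene, at 237, 213 and 184 in reprogrammed cells against 1619, 1131 and 772 in hepatocytes (log2 difference -2.41, adjusted p = 3.43e-06). Mir6236, a hairpin row, took 23853, 24238 and 23902 in reprogrammed cells against 196937, 144394 and 101975 in hepatocytes (log2 difference -2.57, adjusted p = 8.60e-04; not called with the number block in 6 libraries) and was the most abundant row in hepatocytes. The labels do not say how ribosomal RNA was removed, and its part in these values was not tested. Below them the naming rule gave protein-coding genes, among them Leap2, an antimicrobial and ghrelin-blocking peptide (16.5, 26.4 and 22.6 in reprogrammed cells against 57.2, 61.9 and 132 in hepatocytes, log2 difference -1.81, adjusted p = 9.62e-04), Raet1d, a ligand of the natural killer receptor NKG2D (log2 difference -1.76; lost without hepatocyte library 3, with adjusted p = 0.0669), and the carboxylesterase gene Ces1e (log2 difference -1.64).

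Few genes set the reprogrammed cells apart from both other cell types under DDC. Only 8 genes (0.0575% of those tested) were called higher than in hepatocytes and than in biliary cells, 2 comparisons that share the reprogrammed libraries, and 3 (0.0216%), Rn45s, Lars2 and Snora34, were called lower than in both. Tbx1, a T-box transcription factor gene of pharyngeal and heart development, stood at 20.7, 5.83 and 16.5 in reprogrammed, 1.34, 0.246 and 0.765 in biliary cells and 1.84, 0.443 and 0.471 in hepatocytes (log2 difference 2.92 from hepatocytes, adjusted p = 6.86e-05, and 2.99 from biliary cells). Scn7a, a sodium channel family gene, stood at 15, 4.81 and 11.9 in reprogrammed cells, 3.82, 1.79 and 4.30 in biliary cells and 0.555, 0.0958 and 0.120 in hepatocytes (log2 differences 3.10 and 1.36). Gpc3, a glypican gene expressed in fetal liver and liver tumours, stood at 7.76, 10.1 and 17.6 in reprogrammed cells, 3.11, 2.76 and 3.01 in biliary cells and 1.46, 5.78 and 5.49 in hepatocytes (log2 differences 1.35 and 1.62), and its call against hepatocytes was lost without reprogrammed library 3 or hepatocyte library 1, with adjusted p from 0.0543 to 0.0706. Every reprogrammed library lay above the libraries of both other groups for Tbx1 and Scn7a. Mir25 and Mir7024 were hairpin rows inside Mcm7 and Nelfa, so their values are uncertain. Mir25 stood at 42.5, 23.1 and 40.0 and Mir7024 at 37.5, 0 and 22.1 in reprogrammed libraries, and both at 0 in each hepatocyte library. The call of Mir7024 was lost without reprogrammed library 1 or 3, with adjusted p from 0.0695 to 0.075 and with the number block in 6 libraries (adjusted p = 0.0638). The remaining 3, Ms4a4d, Msc and Col12a1, averaged under 10 scaled TPM. Against hepatocytes the call of Ms4a4d was lost without reprogrammed library 1 or 3 or hepatocyte library 2 or 3, with adjusted p from 0.0531 to 0.0726 and that of Col12a1 lost without reprogrammed library 3 or hepatocyte library 3, with log2 differences from 0.78 to 0.96. The number of genes above both was 1 when only the 9 DDC libraries were fitted and 4 to 12 when single libraries were left out.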

How the data were processed

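Total RNA of sorted mouse liver cells was sequenced, and per the submitters' processing notes the authors computed gene TPM with Salmon for the genome build mm10, the unit of the deposited table. The labels give no version. Libraries were matched to groups by title. Since TPM keep no read totals, depth and counting error are unknown and count tests were not used.

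Genes of at least 1 TPM in at least 3 of 15 libraries were kept. Just inside this bound, 304 genes reached 1 TPM in exactly 3 libraries (median of the third highest value 1.21 TPM), and just outside it 338 in exactly 2 (0.766 TPM). Each library was divided by a median-ratio factor over 11924 genes above 0 everywhere. limma 3.58.1 (R 4.3.3, with trend) was fitted to log2(scaled TPM + 1) of 5 groups of 3 libraries, with 10 residual degrees of freedom, and p-values were adjusted by Benjamini-Hochberg over 13905 genes. The main fit held no block for the library number, so its counts and p-values ignore any pairing. Libraries of the same number in reprogrammed cells and hepatocytes deviated together from their group means, weakly for number 3 (correlations across genes 0.449, 0.401 and 0.136). The numbers were treated as pairs in the alternative fits with a block and in the differences between same-numbered libraries. These correlations come from the same values that the block was fitted to, so they cannot show that libraries share an animal. Values with a block are therefore alternatives that depend on this assumption. The labels name no shared animal. The members, the gene lists and the rules were chosen with earlier results of these data known. Named genes were fixed markers, the 12 largest differences in each direction of at least 10 scaled TPM without overlap, up to 5 called and 3 uncalled members of each list, and genes above both other DDC groups; Skiv2l, Lama5, Mcm7 and Nelfa are named as hosts of hairpins, and Igfbp1, Cxcl2 and other genes outside the rule were chosen after their values were seen. A few genes under this rule are left out here. The fit was tested on simulated data of 13905 genes: it recovered 43 of 50 simulated log2 rises of 1.5, 47 of 50 rises of 2 and 39 of 50 falls of -1.5, with 5 false calls among the unchanged genes. Changes were placed only in genes with a log2 value above 2 in hepatocytes. The simulated noise was independent between libraries, without a shift of scale between groups or a shared effect of the library number. It therefore cannot show how the fit deals with those features of the real data. Positions and hosts are from GENCODE M21, promoters from RefSeq on GRCm38.p6. Python 3.11.15 with matplotlib 3.10.9 drew the figures.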

Additional observations from a re-analysis of the deposited data

How the results depend on the processing

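Of the 1906 higher and 802 lower genes none was called in the opposite direction under any alternative run. The choice of scale had the largest effect: 4240 were higher and 9 lower in TPM as deposited, so 99.8% of calls were higher against 70.4% in the main scaling, and 1218 were higher after quantile normalization. A pseudocount of 5 gave 852 higher. The adjusted p alone gave 3757 higher and 2863 lower. With the replicate number as a block the counts were 1937 and 908 in 15 libraries and 1908 and 889 in 6, and apart from the genes and lists described with their blocked values above the block changed no other call of a named gene. Leaving out each library in turn gave 1722 to 2201 higher and 535 to 1099 lower. The number of genes above both other DDC groups was 8, with 5 after quantile normalization, 4 and 3 at pseudocounts of 0.1 and 5, 5 at a filter of 5 TPM, 1 with only the 9 DDC libraries, 17 with sample weights and 4 to 12 without single libraries. Causes of these changes were not tested. Among 174 named genes under these settings, 3221 of 3473 values kept their direction and their side of the thresholds, and none reversed while called. TPM limit what can be said of low genes, since their counting error is unknown.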
